A study of Mus musculus with 4 samples.

Results

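Classical monocytes marked by *Ly6c2* were examined in injured tibial muscle of a mouse model of heterotopic ossification (HO), the formation of cartilage and bone inside soft tissue. A cell was counted as such a monocyte when it held at least 2 unique molecular identifiers (UMIs, each standing for 1 captured transcript) of *Ly6c2*, at least 1 of *Ccr2* and *Csf1r* together and at least 5 of *Lyz2*, at most 4 of *C1qa*, *C1qb* and *C1qc* together, at most 2 of *Mpo*, *Elane* and *Prtn3* together, and none of *Cd3e*, *Ncr1*, *Siglech* and *Cd209a*. These conditions were met by 1042 of the 59824 cells whose share of mitochondrial UMIs was at most 10%, out of 62665 deposited cells. The cells were thus chosen by their measured UMIs of these 14 genes, whose levels describe the choice and are not a result.

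All samples came from *Nse-Bmp4* mice on the C57BL/6 background, aged 6 to 8 weeks, in which the neuron-specific enolase promoter of the rat drives murine *Bmp4*, so the uninjured muscle carried the transgene as well and no wild-type muscle was compared. The groups were uninjured tibial muscle and muscle collected 1, 3 or 7 days after injection (dpi, days post injury) of cardiotoxin (CTX), a snake toxin that destroys muscle fibers. Each group was 1 droplet library made from 3 pooled muscles, so no test between conditions was possible, and library and time point cannot be told apart. The intervals given below are exact 95% intervals, and they cover counting error only.

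Classical monocytes are made in the bone marrow, enter the blood in response to the chemokine CCL2 acting on the receptor CCR2, and are among the first mononuclear cells to reach damaged muscle. There they release cytokines and chemokines, clear debris and turn into macrophages and antigen-presenting cells. Interferons switch on a broad antiviral program in them through transcription factors of the STAT and IRF families.

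The monocytes were concentrated in the muscle taken 1 day after injury. The uninjured library held 74 of them among 11827 cells (0.626%, interval 0.492 to 0.785), the 1 dpi library 716 among 10853 cells (6.60%, 6.14 to 7.08), the 3 dpi library 146 among 14118 cells (1.03%, 0.874 to 1.22) and the 7 dpi library 106 among 23026 cells (0.460%, 0.377 to 0.557). The share at 1 dpi stood above all others, and the 7 dpi share lay below the uninjured one with overlapping intervals. The muscles were digested into single cells before capture, so these are shares of recovered cells, not numbers of cells in the tissue.

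The depth was uneven. In the order uninjured, 1, 3 and 7 dpi, which is kept for every set of 4 values below, the monocytes had a median of 7061.5, 8385, 5113 and 3857 UMIs per cell. Their summed UMIs were 577712, 6511249, 927341 and 502702, so the 1 dpi values are the most precise and the 7 dpi values the least. Every level is a CPM value, which counts a gene's or a list's UMIs among each 1000000 summed over the monocytes of a library. Pairs of libraries shared 30 to 95 cell barcodes among all cells, but the monocytes shared none.

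The levels of the main genes that made the choice are given only to describe it. *Ly6c2*, a surface protein of classical monocytes, stood at 1025, 1992, 1199 and 1190 CPM, although its reads may be hard to separate from those of the near-identical *Ly6c1*, which lies near it on chromosome 15. *Ccr2* stood at 666, 709, 602 and 730 CPM and *Csf1r*, the receptor for the growth factor that keeps monocytes alive, at 265, 325, 277 and 320 CPM. The lysozyme gene *Lyz2* stood at 18942, 9173, 11877 and 20909 CPM, lowest at 1 dpi.

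Genes of classical monocytes that the choice did not use were higher in these cells than in lymphocytes. They were not particular to the monocytes, since at 1 dpi they summed to 5930 CPM in cells that failed the C1q limit alone. Macrophages with at least 10 C1q UMIs had 4741 CPM of them at 1 dpi. The 11 such genes summed to 6870, 7890, 7932 and 7760 CPM, against 876, 810, 928 and 1383 CPM in T and B lymphocytes of the same libraries, which serve here as the measure of RNA floating free in the cell suspension. Among them *Plac8* stood at 2396, 2424, 1703 and 2564 CPM, the fibronectin gene *Fn1* at 1063, 974, 1875 and 1164 CPM, and the chitinase-like *Chil3* at 384, 734, 644 and 867 CPM. *Fn1* was highest at 3 dpi and *Chil3* lowest in uninjured muscle, and the sum of the list stayed within a narrow band from 1 to 7 dpi. T cell markers (0, 11.8, 7.55 and 29.8 CPM), NK cell markers (1.73, 11.8, 6.47 and 7.96 CPM) and mast cell markers (0, 11.4, 7.55 and 3.98 CPM) were at or near 0, and B cell markers reached 194 CPM at most, against 5111 to 9375 CPM in the lymphocytes. Cartilage markers were at 0, 5.38, 1.08 and 643 CPM.

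Some cells also carried RNA of neutrophils or of mesenchymal cells. The neutrophil markers summed to 7810, 6203, 6815 and 6129 CPM with *S100a9* the most abundant, and 93.1 to 98.4% of these UMIs sat in the 2, 24, 8 and 2 cells where they made up more than 1% of the cell. The mesenchymal markers summed to 7568, 1998, 6479 and 6859 CPM, and the 9, 32, 14 and 14 cells above the same limit held 92.1, 75.8, 90.8 and 84.2% of them. Leaving out both kinds of cells left 63, 660, 124 and 90 monocytes, in which the classical genes outside the choice summed to 7957, 8253, 8980 and 8380 CPM, the neutrophil markers to 121, 436, 385 and 141 CPM and the mesenchymal markers to 363, 539, 785 and 1336 CPM. The value without these cells is given below for some lists only.

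Membership depended on the limits to an unequal degree. At exactly 2 UMIs of *Ly6c2* there were 10, 54, 31 and 26 monocytes, and 24, 84, 63 and 79 cells at 1 UMI met every other condition. At exactly 4 UMIs of the C1q genes there were 1, 19, 1 and 0 monocytes, and 1, 14, 3 and 1 cells lay just outside at 5. Cells that failed the C1q limit alone numbered 12, 480, 105 and 16, or 0.101, 4.42, 0.744 and 0.0695% of all cells, so at 1 and 3 dpi many cells with monocyte genes also carried the complement genes of tissue macrophages.

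**Figure D1:**
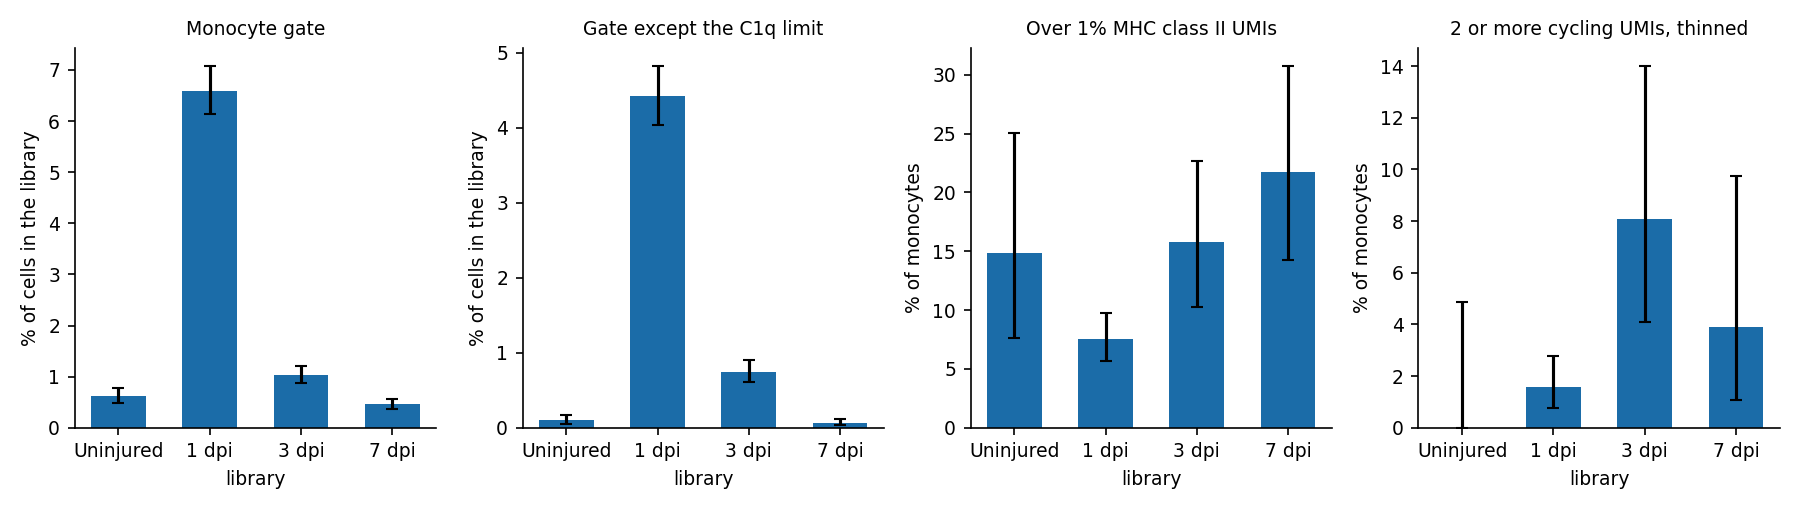
Percent of cells in each library (Uninjured, 1, 3 and 7 dpi on the x axis) that were monocytes, that failed the C1q limit alone, and percent of monocytes with more than 1% of UMIs from MHC class II genes or with 2 or more UMIs of cycling genes after thinning; bars are shares and lines exact 95% intervals for counting error. The monocyte share is 6.60% at 1 dpi and at most 1.03% in the other libraries, while the MHC class II share is lowest at 1 dpi (7.54%).

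The first comparison asked how monocytes of muscle 1 day after injury differed from those of uninjured muscle. Interferon-stimulated genes as a group, most CC chemokines with enough UMIs, *Tnf*, *Il10*, and several chemoattractant receptors and macrophage genes were higher at 1 dpi, and the homeostatic transcription factor *Klf2*, the prostaglandin-degrading enzyme *Hpgd* and the fractalkine receptor *Cx3cr1* were lower. Of 6635 genes with at least 100 UMIs over both libraries, 1134 were higher by 2-fold or more (17.1%) and 251 lower by 2-fold or more (3.78%), and the median log2 ratio was 0.20. These percentages are the background for the counts below. The 2-fold limit is one of size and not a test, and the counts move with the minimum of UMIs. Because the 1 dpi library is much the larger, genes high there reach the minimum more easily. Where the uninjured level alone had to meet it, an alternative chosen after seeing the data, 556 of 6107 genes were higher (9.1%) and 456 lower (7.47%), and with at least 1 UMI in each library 1756 were higher and 1770 lower, so no excess of higher genes can be read from the first split. Counts of list members under the uninjured minimum are given beside the others below.

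Type I interferon-stimulated genes stood out by how many of them were higher. Their 27 members summed to 4852, 12295, 4894 and 4609 CPM, so that 1 dpi exceeded the uninjured level 2.53-fold (interval 2.44 to 2.63), while lymphocytes stayed at 1868, 1844, 1753 and 1719 CPM. Of the 27 genes 26 were higher by 2-fold or more, all but *Ifi27l2a* (2861, 3518, 1269 and 2381 CPM), and their median log2 ratio was 2.14. Under the uninjured minimum 23 of 24 were higher. *Rsad2*, which encodes the antiviral enzyme viperin (chromosome 12, 26442746 to 26456452, minus strand, GRCm38), stood at 41.5, 578, 140 and 79.6 CPM, 13.9-fold higher at 1 dpi (9.33 to 21.7), with 4.51, 20.2, 16.1 and 29.7 CPM in lymphocytes. After every cell was thinned to 2000 UMIs, *Rsad2* was detected in 9.46, 41, 15.4 and 8.82% of the monocytes and in 0.669, 2.82, 4.02 and 5.19% of the lymphocytes, whose median depth before thinning was 2762, 3221, 2515 and 2040 UMIs. The RNA sensor *Ifit1* stood at 10.4, 167, 63.6 and 13.9 CPM (16.1-fold higher, 7.38 to 44.0), *Ifit3* at 27.7, 253, 52.8 and 27.8 CPM, and *Isg15*, a ubiquitin-like modifier, at 196, 883, 264 and 209 CPM (4.51-fold, 3.75 to 5.49). *Irf7*, the factor that amplifies interferon production, stood at 118, 710, 196 and 161 CPM (6.03-fold, 4.75 to 7.78), and *Slfn4* at 12.1, 317, 52.8 and 19.9 CPM (26.1-fold, 12.7 to 65.1). In these 6 genes, from *Rsad2* to *Slfn4*, the 1 dpi library was the highest and the 3 dpi library the next.

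The sequence before the start of several of these genes holds the interferon-stimulated response element, the site through which these factors act. RefSeq promoter windows of GRCm38.p6 run from 250 bases before to 50 after the start, and only the 250 bases before it were searched. The letters GAAA, any 2 bases and GAAA again, on either strand, were found there in 2.98% of 32851 windows. A window was present for 21 of the 27 type I genes, and 11 of those genes held the motif (52.4%). So did 9 of 13 interferon gamma induced genes (69.2%), 0 of 7 CC chemokine genes and 0 of 7 MHC class II genes. These are shares of genes with the motif in any of their windows, whereas the 2.98% is a share of single windows. A match describes the letters and is not evidence that the site was used. The stretches of 120 bases below are shown for 4 of the genes higher at 1 dpi. They run 5′ to 3′ along each gene from 160 to 41 bases before its start, with the matched letters in capitals, on the reverse strand for the first 3 genes and in 3 overlapping copies for *Isg15*.
*Rsad2*, chr12:26456493-26456612, minus strand: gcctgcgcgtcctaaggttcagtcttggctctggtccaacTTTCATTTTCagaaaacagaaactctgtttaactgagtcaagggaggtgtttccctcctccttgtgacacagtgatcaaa
*Ifit1*, chr19:34640729-34640848, plus strand: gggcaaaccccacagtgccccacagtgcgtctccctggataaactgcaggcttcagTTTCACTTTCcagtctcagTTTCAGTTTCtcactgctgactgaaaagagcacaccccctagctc
*Ifit3*, chr19:34583369-34583488, plus strand: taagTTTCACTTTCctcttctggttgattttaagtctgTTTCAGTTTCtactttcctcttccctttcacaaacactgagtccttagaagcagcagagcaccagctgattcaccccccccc
*Isg15*, chr4:156200859-156200978, minus strand: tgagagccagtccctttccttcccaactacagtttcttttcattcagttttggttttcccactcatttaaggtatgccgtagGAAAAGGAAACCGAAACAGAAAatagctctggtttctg

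Genes induced by interferon gamma were likewise higher. They summed to 370, 1287, 547 and 394 CPM (3.47-fold higher at 1 dpi, 3.03 to 4.0), against 418, 499, 597 and 456 CPM in lymphocytes, and 10 of the 12 with enough UMIs were higher by 2-fold or more. Of those 12 genes 5 reached the minimum only through their 1 dpi level, and under the uninjured minimum 5 of 7 were higher. *Cd274*, which encodes the T cell inhibitor PD-L1, stood at 1.73, 81.1, 16.2 and 9.95 CPM in the monocytes and at 25.8, 59.4, 34.5 and 26.9 CPM in the lymphocytes, so the monocytes were below lymphocytes in every library but that of 1 dpi. *Gbp2*, a GTPase that attacks intracellular microbes, stood at 15.6, 111, 33.4 and 57.7 CPM (7.11-fold higher at 1 dpi).

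CC chemokines, which call in further leukocytes, were also highest at 1 dpi. They summed to 3819, 10413, 3534 and 3589 CPM, 2.73-fold higher than in uninjured muscle (2.61 to 2.85), with 1595, 983, 2684 and 1997 CPM in lymphocytes, and 8 of 10 genes were higher by 2-fold or more, or 4 of 6 under the uninjured minimum. The members that bind CCR2 lie in 1 cluster on the plus strand of chromosome 11 (GRCm38), with *Ccl2* at 82035571 to 82037453, *Ccl7* at 82045712 to 82047525 and *Ccl12* at 82101845 to 82103400. *Ccl2* stood at 916, 2556, 664 and 766 CPM (2.79-fold, 2.56 to 3.05). *Ccl7* stood at 71.0, 1399, 263 and 31.8 CPM (19.7-fold, 14.5 to 27.5), with 23.2, 101, 206 and 76.1 CPM in lymphocytes, and 33 of its 41 uninjured UMIs came from 1 cell. *Ccl12* stood at 0, 351, 6.47 and 0 CPM, at least 67.6-fold higher at 1 dpi when the uninjured library is set to a floor of 3 UMIs. After thinning it was found in 0, 24.3, 0.735 and 0% of the monocytes and 0, 0.722, 0 and 0% of the lymphocytes, and *Ccl2* in 51.4, 70.3, 40.4 and 54.9% of the monocytes and 4.01, 9.96, 12.1 and 7.41% of the lymphocytes. *Ccl12* was thus hardly detected outside 1 dpi, whereas the share with *Ccl2* was above that in lymphocytes in every library. *Ccl3* (703, 730, 397 and 611 CPM) did not pass 2-fold, and *Ccl5* (1.73, 26.6, 35.6 and 27.8 CPM), although past it, lay far below the lymphocytes (1025, 447, 1831 and 1429 CPM). The CXC chemokines summed to 2868, 5031, 2766 and 1518 CPM, with *Cxcl1*, *Cxcl3* and *Cxcl16* higher and *Cxcl14* lower of 6 genes, or 1 higher and 1 lower of 4 under the uninjured minimum.

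Inflammatory cytokines moved gene by gene, and the list as a whole hardly differed in sum, at 2963, 3691, 3400 and 1629 CPM (1.25-fold higher at 1 dpi, 1.19 to 1.31). Without the cells over 1% neutrophil or mesenchymal markers it summed to 3435, 3744, 4144 and 1840 CPM, highest at 3 dpi. Of 9 genes 5 were higher by 2-fold or more, or 3 of 7 under the uninjured minimum. *Tnf*, which drives acute inflammation, stood at 45.0, 473, 82.0 and 61.7 CPM (10.5-fold, 7.16 to 16.1). It was detected after thinning in 12.2, 39.7, 14.7 and 7.84% of the monocytes, against 5.69, 3.18, 9.60 and 11.9% of the lymphocytes. The monocyte share at 7 dpi thus lay below that of the lymphocytes, and the part of free RNA in either share was not tested. *Il10*, an anti-inflammatory cytokine, stood at 0, 131, 12.9 and 1.99 CPM (at least 25.2-fold against the floor), and *Il1rn*, the natural antagonist of the IL-1 receptor, at 17.3, 209, 70.1 and 7.96 CPM (12.1-fold). *Il1b* had no such pattern, at 2145, 1560, 1766 and 1140 CPM. Inflammatory *Tnf* and inhibitory *Il10* and *Il1rn* were therefore highest in the same library. Of 13 negative regulators of inflammatory signalling, which summed to 9616, 14951, 11420 and 6921 CPM, 5 were higher by 2-fold or more (4 of 12 under the uninjured minimum), among them *Nfkbiz* (364, 1264, 907 and 342 CPM) and *Tnfaip3*, which encodes the NF-κB inhibitor A20 (282, 928, 509 and 135 CPM).

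Receptors for chemoattractants and for microbial and immune-complex ligands were in part higher. Of 10 chemoattractant receptors 7 were higher by 2-fold or more and 2 lower, or 5 and 2 of 8 under the uninjured minimum. *C3ar1*, the receptor for complement fragment C3a, stood at 24.2, 251, 57.2 and 31.8 CPM (10.3-fold, with 9 of its 14 uninjured UMIs in 1 cell), and *C5ar1* at 29.4, 173, 52.8 and 39.8 CPM (5.88-fold). *Cx3cr1*, which binds fractalkine and is high on patrolling monocytes, went the other way at 185, 68.3, 89.5 and 149 CPM (2.71-fold lower, 2.17 to 3.35). Of 12 pattern recognition receptors 8 were higher (4 of 8 under the uninjured minimum), among them the C-type lectin *Clec4e* (79.6, 398, 203 and 87.5 CPM), and of 11 Fc and phagocytic receptors 5 were (3 of 9), among them the high-affinity IgG receptor *Fcgr1* (104, 479, 180 and 131 CPM, 4.62-fold).

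Genes of macrophages were present at 1 dpi in the monocytes although the choice capped the C1q genes. The 11 genes typical of resident macrophages summed to 301, 971, 432 and 320 CPM (3.22-fold higher at 1 dpi, 2.77 to 3.77). Of the 6 with enough UMIs 4 had them only through their 1 dpi level, so a count over the 6 shows nothing, and under the uninjured minimum 2 genes were left, both higher. The C1q macrophages of the same libraries, cells with at least 10 C1q UMIs, stood at 6922, 2985, 3852 and 3084 CPM and the lymphocytes at 135, 105, 95.4 and 85.4 CPM, so the monocytes lay between. The mannose receptor gene *Mrc1* stood at 6.92, 126, 57.2 and 23.9 CPM, *Folr2* at 0, 51.1, 3.24 and 0 CPM, and *Pf4* at 3.46, 118, 12.9 and 0 CPM. The transcription factor gene *Maf* (67.5, 360, 96.0 and 101 CPM, 5.33-fold), which promotes macrophage identity, was higher too, whereas *Cebpd* was lower (639, 212, 294 and 282 CPM) in a manner also seen in lymphocytes (579, 186, 216 and 159 CPM). Of 11 genes of recruited and repair macrophages 4 were higher (2 of 9 under the uninjured minimum), among them *Gpnmb* (6.92, 132, 66.9 and 0 CPM) and the matrix protein osteopontin, *Spp1* (48.5, 541, 417 and 81.6 CPM, 11.2-fold). All 28 uninjured UMIs of *Spp1* came from 1 cell.

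**Figure D2:**
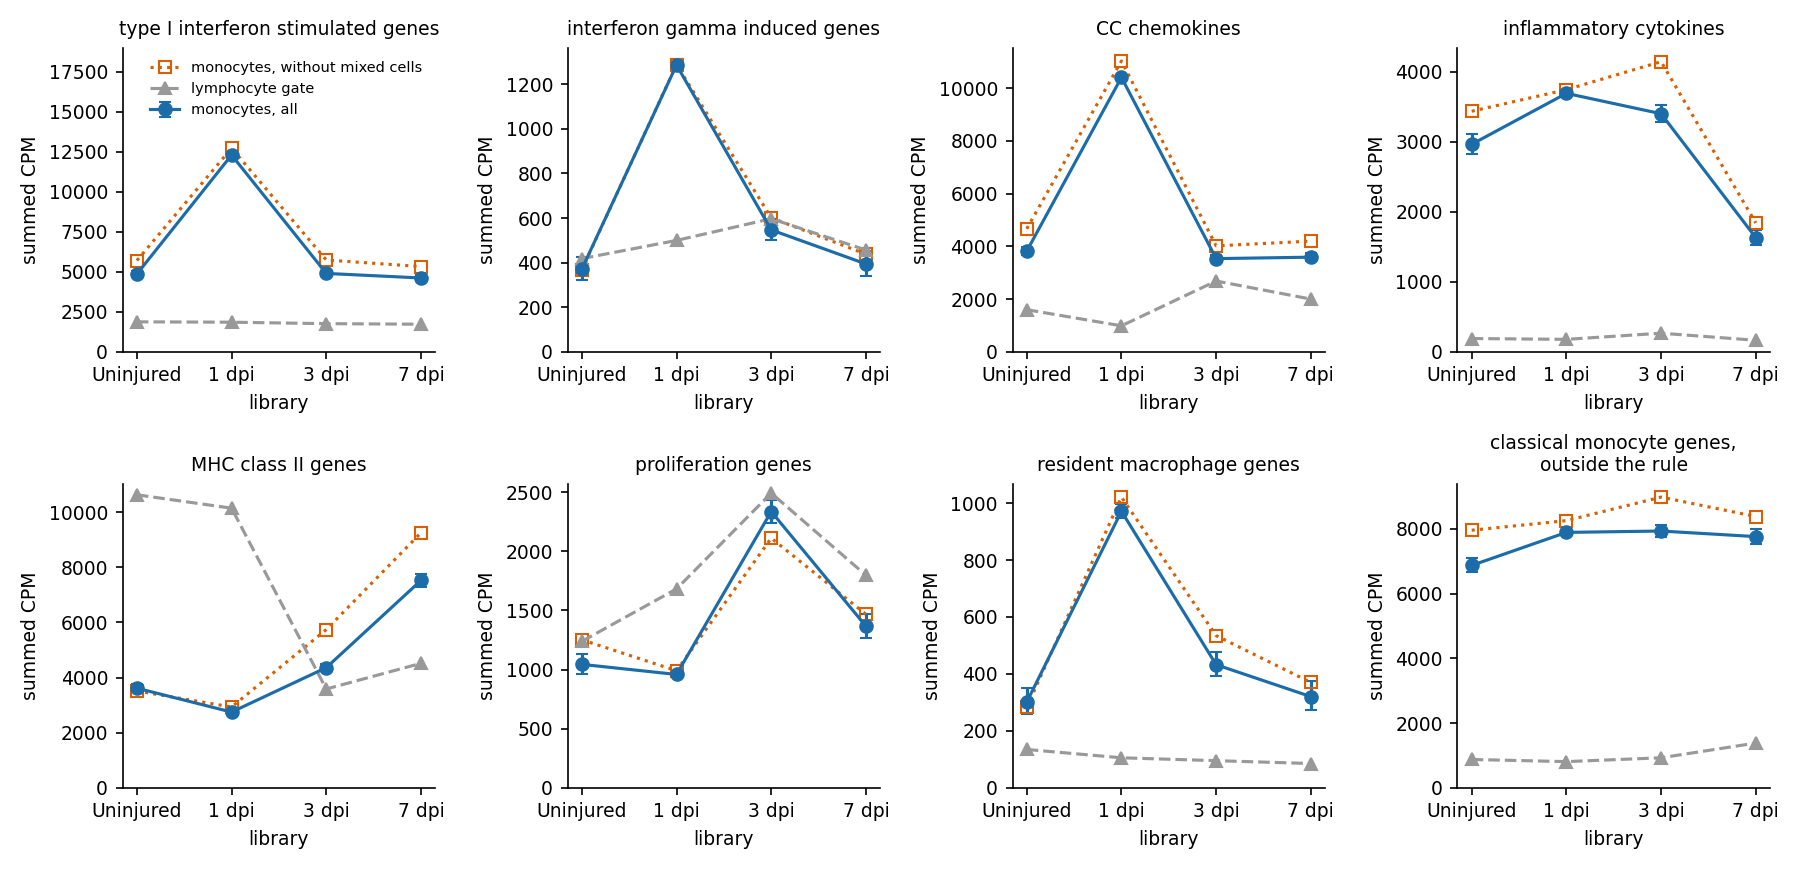
Summed CPM of 8 gene lists by library (y axes, linear and starting at 0) in the monocytes (circles with exact 95% Poisson bars), in the monocytes without cells over 1% neutrophil or mesenchymal markers (open squares) and in lymphocytes (triangles). The interferon and CC chemokine lists are highest at 1 dpi (12295 and 10413 CPM), the MHC class II list at 7 dpi (7521 CPM) and the proliferation list at 3 dpi (2336 CPM).

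Secreted factors that act on mesenchymal cells, which give rise to the cartilage and bone of HO, were examined as a list. The growth factor list summed to 2662, 4927, 4633 and 2160 CPM, with 6 of the 14 genes that had enough UMIs higher by 2-fold or more at 1 dpi (4 of 11 under the uninjured minimum) and *Bmp2*, a bone morphogenetic protein, lower (27.7, 13.2, 2.16 and 1.99 CPM). Without the cells over 1% neutrophil or mesenchymal markers the list summed to 3045, 5037, 5569 and 2033 CPM, highest at 3 dpi. The matrix protein and TGF-β activator thrombospondin 1, *Thbs1*, stood at 351, 1130, 1200 and 267 CPM (3.22-fold), and the stress cytokine *Gdf15* at 36.4, 372, 87.3 and 35.8 CPM (10.2-fold), with 71.4% of its uninjured UMIs in 1 cell. The progranulin gene *Grn* stood at 294, 906, 410 and 290 CPM. *Tgfb1* (256, 185, 141 and 223 CPM) and *Igf1* (45.0, 37.5, 78.7 and 73.6 CPM) did not pass 2-fold at 1 dpi. Among matrix and protease genes 9 of 19 were higher under either minimum, with the lysosomal proteases *Ctsb* (765, 2530, 1032 and 808 CPM) and *Ctsd* (305, 1248, 559 and 237 CPM) as examples.

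Some genes were lower at 1 dpi. *Hpgd*, which inactivates prostaglandin E2, stood at 111, 11.5, 20.5 and 67.6 CPM (9.62-fold lower, 6.78 to 13.6), while *Ptgs2*, which makes its precursor, was higher (91.7, 258, 277 and 69.6 CPM). *Klf2* stood at 3694, 1347, 1209 and 2851 CPM (2.74-fold lower) and the stress-response factor *Atf3* at 5740, 2255, 2118 and 3147 CPM. *Klf2* was also lower after injury in lymphocytes, at 3996, 1363, 1085 and 1678 CPM, although at 7 dpi they stood below the monocytes, and the immediate early genes as a list stood at 40247, 27344, 23968 and 27012 CPM in monocytes and 21681, 12012, 11981 and 12717 CPM in lymphocytes, so these too were lower after injury in lymphocytes. *Gngt2*, a G-protein subunit, stood at 277, 101, 124 and 406 CPM, and *Gm9733*, *Hist1h2bc*, *Ypel3*, *Hopx* and *Pold4* were 3.07- to 4.15-fold lower. Another 33 genes ranked ahead of or among these were at lower levels in the monocytes than in all other cells of the uninjured library, among them *Col1a1* and *Itm2a*. S100 genes (13842, 11866, 10460 and 12854 CPM, or 8195, 8009, 5770 and 8949 CPM without the cells over 1% neutrophil or mesenchymal markers) and glycolysis genes (3471, 3778, 4703 and 3865 CPM) had none past 2-fold.

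**Figure D3:**
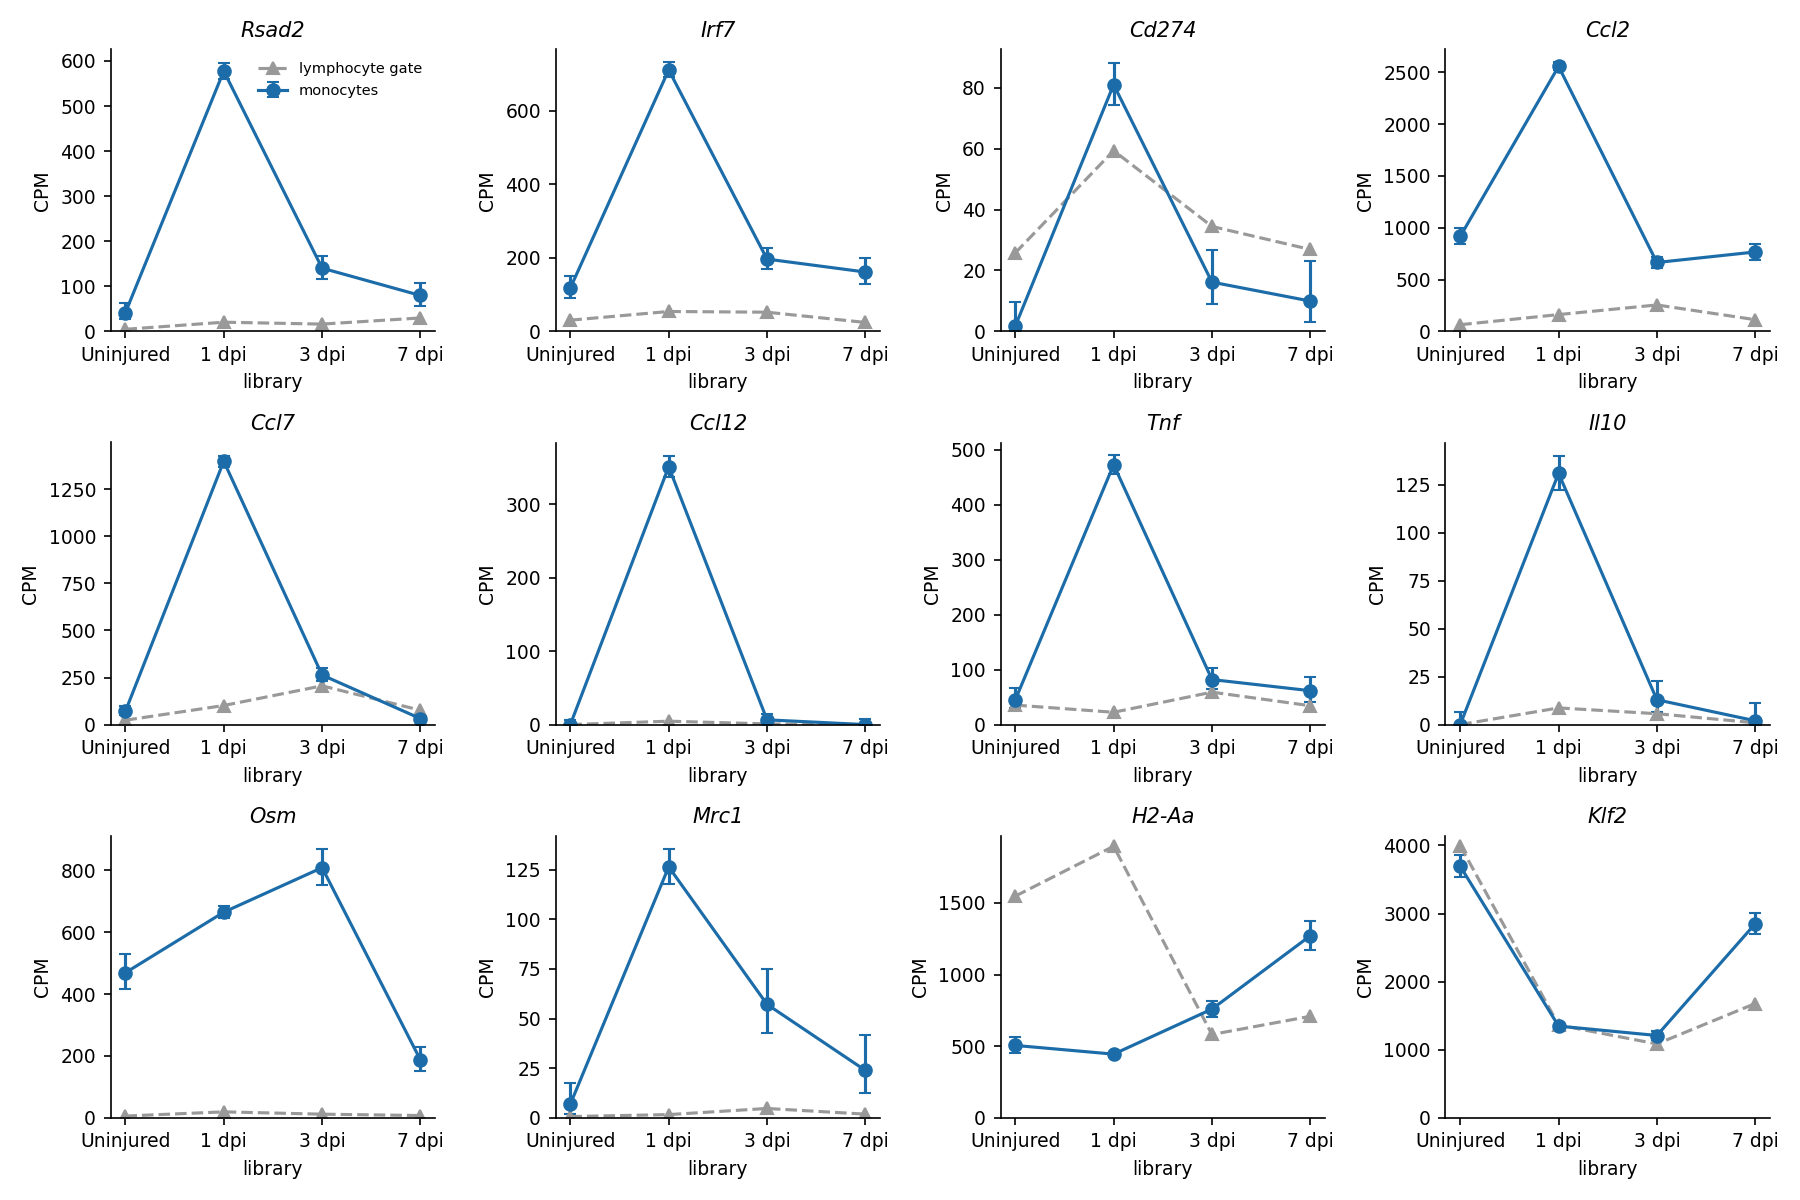
CPM of 12 single genes by library (y axes, linear and starting at 0) in the monocytes (circles with exact 95% Poisson bars) and in lymphocytes (triangles). *Rsad2*, *Irf7*, *Ccl7*, *Ccl12*, *Tnf* and *Il10* peak at 1 dpi, *Osm* is high until 3 dpi (809 CPM) and low at 7 dpi (187 CPM), and the uninjured *Klf2* level exceeds the 1 and 3 dpi levels in both kinds of cells.

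The second comparison, 3 dpi against 1 dpi, asked what became of this program. Interferon and chemokine genes were lower at 3 dpi, genes of the cell cycle were higher, though only 1 past 2-fold in thinned cells, and the cytokine gene *Osm* kept its level. Of 6875 genes with at least 100 UMIs over both libraries 329 were higher by 2-fold or more (4.79%) and 378 lower by 2-fold or more (5.5%), with a median log2 ratio of 0.08. With size factors from the median of ratios the split was 215 higher and 552 lower, and the median -0.11, and with the minimum set by the 3 dpi level alone it was 787 higher and 241 lower, so the balance of the directions depends on the scaling and on the minimum.

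The interferon-stimulated genes were 2.51-fold lower in sum at 3 dpi (2.44 to 2.59), with 20 of 27 lower by 2-fold or more and a median log2 ratio of -1.45, and 19 were lower when the 3 dpi level alone had to meet the minimum. The sum at 3 dpi was near that of uninjured muscle only because of *Ifi27l2a*, since the other 26 genes summed to 1991, 8776, 3624 and 2228 CPM and 25 of them stood above their uninjured level at 3 dpi. *Rsad2* was 4.12-fold lower (3.46 to 4.95) and *Ifit3* 4.79-fold lower. The interferon gamma induced genes were 2.35-fold lower in sum (2.15 to 2.58). Of the 12 that met the minimum over the pair 10 were lower by 2-fold or more. Genes high at 1 dpi met that minimum more easily, so this count alone shows little. CC chemokines were 2.95-fold lower in sum (2.85 to 3.05), with 8 of 10 lower, or 6 when the 3 dpi level alone had to meet the minimum. *Ccl12* was 54.3-fold lower (24.9 to 148), *Ccl7* 5.32-fold and *Ccl2* 3.85-fold (3.55 to 4.18). *Il10* was 10.1-fold and *Tnf* 5.77-fold lower, and *Slfn4*, the inhibitory receptor *Lair1* and *Pf4* were 5.99-, 8.31- and 9.09-fold lower. 

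Proliferation genes were higher in sum at 3 dpi. They summed to 1044, 958, 2336 and 1367 CPM (2.44-fold higher at 3 than at 1 dpi, 2.32 to 2.56), and 10 of 11 were higher by 2-fold or more with a median log2 ratio of 1.72. *Mki67*, present in dividing cells, stood at 3.46, 41.6, 137 and 55.7 CPM (3.29-fold, 2.64 to 4.08), and topoisomerase *Top2a* at 0, 31.0, 141 and 25.9 CPM (4.55-fold). After thinning, 2 or more UMIs of 6 of these genes were found in 0 of 74, 11 of 703 (1.56%, 0.784 to 2.78), 11 of 136 (8.09%, 4.11 to 14.0) and 4 of 102 monocytes (3.92%, 1.08 to 9.74), and without thinning in 0, 4.89, 15.8 and 4.72%. For the count of 0 of 74 the exact upper limit is 4.86%, and the floor of 3 cells is 4.05%. The lymphocytes showed shares of 4.35, 4.19, 17.3 and 14.8% and list sums of 1238, 1682, 2492 and 1797 CPM, so at 3 dpi the monocyte share was below that of a population in the same library. Thinning left out 34, 98, 166 and 127 lymphocytes, so their shares describe only the deeper ones. The count of higher proliferation genes is fragile, since it fell to 1 in cells thinned to 2000 UMIs, where fewer genes reached the minimum and the sum was 2.40-fold higher, to 6 without the cells over 1% neutrophil or mesenchymal markers and to 3 without the cells of extreme depth or highest doublet rank. *Hist1h1b*, a linker histone (8.65, 37.3, 184 and 13.9 CPM), had 38.0% of its 3 dpi UMIs in 1 cell.

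Other genes higher at 3 dpi by the ranking used were *Racgap1*, *Hjurp*, *E2f2* and *H2afz*, all tied to the cell cycle, and *Mpp7*, *Tuba4a*, *Fn1* and *H2-Eb1*. A further 127 genes ranked ahead of or among them were lower in the monocytes than in all other cells, beginning with the matrix genes *Tnc*, *Ltbp2* and *Cthrc1*. *Racgap1*, *Hjurp*, *E2f2* and *H2afz* stood at 60.4, 79.8, 101 and 1274 CPM in the monocytes of 3 dpi. The lymphocytes of that library had 58.1, 75.6, 87.4 and 872 CPM of them, and 29.7% of the monocyte *Hjurp* UMIs lay in 1 cell. The coagulation factor *F13a1* (353, 386, 632 and 231 CPM) and *Vcan* (119, 329, 483 and 217 CPM), both markers of classical monocytes, were highest at 3 dpi but did not pass 2-fold against 1 dpi. *Timp1*, an inhibitor of matrix proteases, stood at 17.3, 67.3, 346 and 157 CPM with nearly the same values in lymphocytes (11.6, 57.1, 320 and 235 CPM).

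*Osm*, which encodes oncostatin M, a cytokine that acts on mesenchymal cells, kept a high level for longer than the interferon and chemokine genes. It stood at 469, 665, 809 and 187 CPM and was detected after thinning in 44.6, 51.1, 64.7 and 21.6% of the monocytes, against 1.34, 3.32, 3.41 and 2.22% of the lymphocytes. *Il6* (12.1, 95.5, 163 and 15.9 CPM) and *Ptgs2* shared this course, high at both 1 and 3 dpi.

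The third comparison, 7 dpi against 3 dpi, asked what differed by the last time point. Of 2146 genes with at least 100 UMIs over both libraries 46 were higher by 2-fold or more (2.14%) and 180 lower by 2-fold or more (8.39%), with a median log2 ratio of -0.09. With median-of-ratios size factors the split was 94 higher and 122 lower and the median 0.10, and with the minimum set by the 7 dpi level alone it was 93 higher and 65 lower. Some inflammatory and matrix genes, among them *Osm*, *Il6* and *Thbs1*, were lower at 7 dpi, and genes for antigen presentation on MHC class II were higher in sum. Both libraries were small, and fewer genes reached the minimum than in the earlier comparisons.

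Cytokine genes were among those lower. The inflammatory list was 2.09-fold lower in sum (1.93 to 2.26), with 3 of 6 genes past 2-fold. Of these 3 genes *Il6* and *Ptgs2* met the minimum of UMIs only through their 3 dpi level, so this count alone shows little. Genes high at 3 dpi met the minimum more easily in the lists that follow as well. *Osm* was 4.33-fold lower (3.49 to 5.42), *Il6* 10.2-fold and *Ptgs2* 3.98-fold. Of 8 negative regulators 5 were lower, namely *Nfkbiz*, *Tnfaip3* (3.76-fold), *Socs3* (597, 749, 803 and 384 CPM), *Bcl3* and *Tsc22d3*, with a median log2 ratio of -1.15. Among growth factors 3 of 8 were lower, namely *Osm*, *Thbs1* (4.50-fold) and *Spp1* (5.12-fold, with 53.7% of its 3 dpi UMIs in 1 cell). Of 15 matrix and protease genes 7 were lower. The microbial sensor *Tlr2* stood at 144, 266, 292 and 85.5 CPM (3.42-fold lower), and *Mxd1*, *Nr4a3* and *Hist1h1b* were also among the 10 leading genes.

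Among the leading genes higher at 7 dpi, *Klf2* (2.36-fold), *Gngt2* (3.27-fold), *Lst1* (720, 620, 267 and 684 CPM, 2.56-fold) and the LIM protein *Crip1* (4082, 2557, 1441 and 3235 CPM, 2.25-fold) were nearer to their uninjured levels at 7 than at 3 dpi. *Rras*, *Pet100*, *Metrnl*, *BC028528* and *Neat1* were 2.14- to 3.74-fold higher. *Fabp4*, a lipid carrier of fat and endothelial cells, was 14.0-fold higher, with 118 of its 129 UMIs in 1 cell. Another 15 genes, led by *Tagln*, *C1qtnf3* and *Igfbp5*, were at lower levels in the monocytes than in all other cells.

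MHC class II genes, which present antigen to CD4+ T cells, were lowest at 1 dpi and highest at 7 dpi. They summed to 3614, 2747, 4359 and 7521 CPM, 1.73-fold higher at 7 than at 3 dpi (1.65 to 1.80) and 2.08-fold higher than in uninjured muscle (1.97 to 2.20). *H2-Aa* stood at 505, 445, 759 and 1271 CPM, *H2-Ab1* at 589, 431, 775 and 1273 CPM, and the invariant chain *Cd74* at 1679, 1329, 1908 and 3312 CPM. *Ciita*, the master regulator of these genes, stood at 19.0, 13.8, 19.4 and 27.8 CPM. Only 1 of 6 genes passed 2-fold between 3 and 7 dpi, *H2-DMa*, and the median log2 ratio was 0.82. The lymphocytes, which include B cells, stood at 10626, 10140, 3583 and 4514 CPM and the C1q macrophages at 22238, 8423, 13404 and 24870 CPM, both of which express these genes themselves, so the lymphocytes give no measure of free class II RNA and its part in the monocyte levels was not tested. Without the cells carrying neutrophil or mesenchymal RNA the sums were 3510, 2932, 5737 and 9249 CPM.

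The MHC class II signal was uneven between cells. More than 1% of UMIs came from these genes in 11 of 74 (14.9%, 7.66 to 25), 54 of 716 (7.54%, 5.72 to 9.73), 23 of 146 (15.8%, 10.3 to 22.7) and 23 of 106 monocytes (21.7%, 14.3 to 30.8), and these cells held 76.9, 67.1, 79.3 and 86.6% of the list. The limit cuts a continuous range, since 7, 48, 15 and 12 monocytes lay between 0.5 and 1.5% of UMIs. At 1 dpi the cells above it had 166 CPM of dendritic cell markers against 29.7 CPM in the other monocytes, 41.5 against 3.47 CPM of *Itgax*, and 175 against 776 CPM of *Chil3*. At 7 dpi they had 120 against 29.8 CPM of dendritic cell markers, 231 against 1025 CPM of *Chil3* and 421 against 1348 CPM of *Fn1*. Cells with less classical monocyte RNA thus carried most of the class II RNA, yet the median cell of either kind had 0 UMIs of the dendritic cell markers, which were detected in 48.1% of the cells above the limit and 20.4% of the others at 1 dpi, without thinning. B cell markers were higher in them as well at 1 dpi (420 against 177 CPM), and the part of doublets in this was not tested.

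A second motif was searched in the class II promoters. The letters CTGATTGG, the reversed CCAAT box of these promoters, were searched on either strand of the same stretch before the start. They were found in 3.83% of all 32851 windows. Counted by genes with the motif in any window, they were found in 3 of 7 class II genes (42.9%). The same count gave 1 of 13 interferon gamma induced genes and 0 of 21 type I interferon-stimulated genes. The 100 bases from 120 to 21 before the start are shown for 2 genes whose level was highest at 7 dpi, with the motif in capitals.
*H2-Aa*, chr17:34287844-34287943, minus strand: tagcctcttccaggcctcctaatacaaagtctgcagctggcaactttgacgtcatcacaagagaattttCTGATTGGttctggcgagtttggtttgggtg
*H2-Eb1*, chr17:34305747-34305846, plus strand: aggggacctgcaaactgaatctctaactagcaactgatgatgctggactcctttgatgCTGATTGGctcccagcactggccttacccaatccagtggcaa

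The last comparison set 7 dpi against uninjured muscle and asked how far the monocytes had returned. Of 1491 genes with at least 100 UMIs 46 were higher by 2-fold or more (3.09%) and 43 lower by 2-fold or more (2.88%), with a median log2 ratio of 0.02. The interferon-stimulated genes differed by a ratio of 0.95 (0.899 to 1.00), although without *Ifi27l2a* the other 26 stood at 2228 against 1991 CPM, with 17 of them above their uninjured level. CC chemokines differed by a ratio of 0.940 (0.883 to 1.00), while the inflammatory cytokines were 1.82-fold lower in sum (1.67 to 1.98). Of 6 MHC class II genes 3 were higher by 2-fold or more, *H2-Aa*, *H2-Ab1* and *H2-Eb1*, with a median log2 ratio of 1.05. Markers of cartilage (643 against 0 CPM, or 209 against 0 CPM without the mixed cells) and muscle (127 against 8.65 CPM) were higher in the 7 dpi library, as were mesenchymal markers once the mixed cells were left out (1336 against 363 CPM), and their part in these results was not tested. The muscle sum at 7 dpi was only 64 UMIs. After thinning, the highest monocyte held 37 muscle UMIs and 96.1% of the monocytes held none.

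At 1 dpi the 480 cells that failed the C1q limit alone had 14698 CPM of type I interferon-stimulated genes and 14012 CPM of CC chemokines, above the 12295 and 10413 CPM of the monocytes, and 2230 CPM of resident macrophage genes against 971 CPM. Their classical monocyte genes stood at 5930 CPM against 7890 CPM. The genes that differed from the monocytes beyond the C1q limit included *Ccl8* (328 against 62.7 CPM), *Pf4* (523 against 118 CPM), *Folr2* (178 against 51.1 CPM), *Cbr2* (316 against 96.3 CPM) and *Ccl12* (903 against 351 CPM). The macrophages with at least 10 C1q UMIs and at most 1 of *Ly6c2* stood at 10200, 11463, 2985 and 4741 CPM for the interferon, CC chemokine, resident and classical lists at 1 dpi. The high interferon and chemokine levels of 1 dpi were thus also measured in cells with macrophage genes and were not particular to the monocytes.

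**Figure D4:**
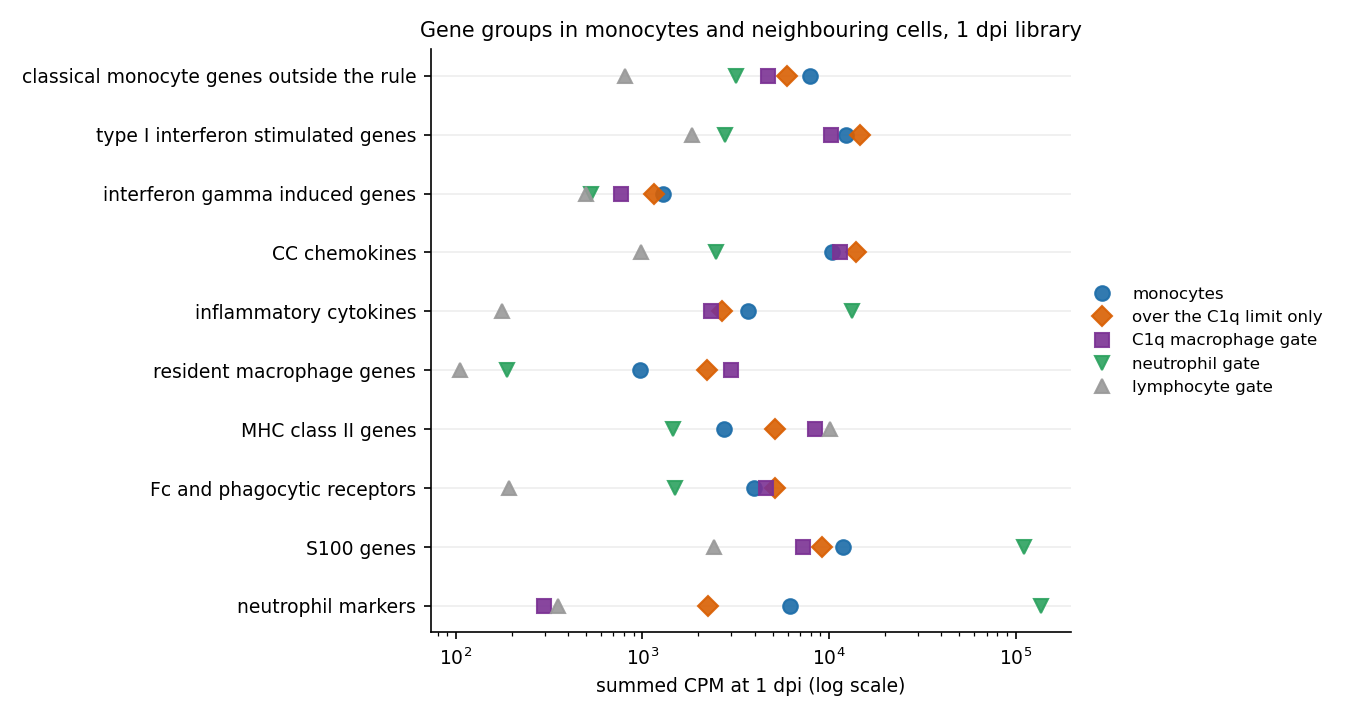
Summed CPM of 10 gene lists at 1 dpi (log axis) in monocytes, in cells that failed the C1q limit alone, in C1q macrophages, in neutrophils and in lymphocytes. The type I interferon list stands at 12295 CPM in monocytes and 14698 CPM in the cells over the C1q limit, and the resident macrophage list at 971 and 2230 CPM.

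Within each library the monocytes also varied with their *Ly6c2* level. When they were ordered by *Ly6c2* per UMI, the 18, 179, 36 and 26 cells with the most had more RNA of the other classical genes than as many cells with the least, at 9943 against 4776 CPM in uninjured muscle, 9459 against 6859 at 1 dpi, 10658 against 5414 at 3 dpi and 10474 against 4868 at 7 dpi. The interferon-stimulated genes followed the same order, at 7455 against 3143, 17875 against 10022, 8714 against 3325 and 8792 against 2216 CPM. *Fn1* ran the other way, at 742 against 1584, 434 against 1223, 1388 against 2136 and 858 against 1364 CPM. The cells with the least *Ly6c2* also held more mesenchymal RNA, at 17118, 3158, 13022 and 13110 CPM against 306, 622, 544 and 2084 CPM, and they had the higher median depth in all 4 libraries. The part of such mixed cells in these differences was not tested. Because the cells were ordered by a gene that chose them, the values are a description and allow no test.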

How the data were processed

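Single cells of tibial muscle were captured on the 10x Genomics platform, 1 library per condition. The authors aligned reads with STAR in Cell Ranger 5.0.0 to mm10 and deposited UMI counts of 32285 genes per cell, used here as raw counts. The methods mention down-sampling of reads; its order relative to the deposited files is not given in the sources used here. Library totals were 112317902, 91146335, 116346301 and 129007669 UMIs for 12031, 11722, 15160 and 23752 cells (uninjured, 1, 3 and 7 dpi).

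UMIs were summed over monocytes of a library with Python 3.11.15, numpy 2.4.6, scipy 1.17.1 and pandas 2.3.3. Shares have Clopper-Pearson, levels Poisson and ratios conditional binomial 95% intervals, all exact. A count of 0 was given a floor of 3 UMIs per library. Doublets were ranked with Scrublet in scanpy 1.11.5 as an alternative and not removed (10, 60, 15 and 9 monocytes lay in the top 7.5% of ranks). A cell thinned to 2000 UMIs was left out if shallower, leaving 74, 703, 136 and 102 monocytes and 299, 1385, 323 and 135 lymphocytes. Lymphocytes had at least 2 UMIs of *Cd3e* or 5 of *Cd79a* and *Cd79b* with none of *Csf1r* and *Csf3r* (333, 1483, 489 and 262 cells). The intervals were tested on simulated counts that held counting error only, without differences between cells. A fold rule was tested on them as well, but it also required the interval to exclude no change, which the calls above did not.

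The genes named were those that chose the cells, genes of 38 lists, and per comparison the 10 each way whose ratio interval lay farthest from 1, with at least 50 UMIs in the higher and 5 in the lower library and a level no lower than in all other cells. Some genes that met this rule are not reported here. Gene positions come from GENCODE M21. The cells and lists were chosen with earlier results of these data known.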

Additional observations from a re-analysis of the deposited data

Results flagged for a closer look

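Cells that met every condition for the monocytes except the need for a UMI of *Ccr2* or *Csf1r* are used in no comparison above. They made up 2.96% of the 1 dpi library (321 of 10853 cells), against 0.194% of the uninjured library (23 of 11827 cells), 1.10% at 3 dpi and 0.122% at 7 dpi, and they are given here because their share at 1 dpi was above that of the control library. Neutrophil markers stood at 398677, 266293, 234975 and 105687 CPM in them and *Ly6g*, a surface protein of neutrophils, at 631, 394, 372 and 173 CPM, while at 1 dpi they had 1977 CPM of type I interferon-stimulated genes and 210 CPM of MHC class II genes, against 12295 and 2747 CPM in the monocytes. The classical monocyte genes outside the choice summed to 6797, 7736, 8648 and 5923 CPM in these cells. In the monocytes they summed to 6870, 7890, 7932 and 7760 CPM. How many of these cells were monocytes with *Ccr2* and *Csf1r* missed by counting was not tested.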

How the results depend on the processing

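With 1 library per condition nothing was left out in turn, and no paired analysis was possible because each condition has 1 library. The monocyte share was highest at 1 dpi and next highest at 3 dpi under every alternative tried, whereas the uninjured and 7 dpi shares changed places with the thinned choice (0.378% at 7 dpi). The uninjured, 1, 3 and 7 dpi shares were 0.423, 5.62, 0.666 and 0.239% with at least 4 UMIs of *Ly6c2*, and 0.373, 4.66 and 0.759% (uninjured, 1 and 3 dpi) when the choice used cells thinned to 2000 UMIs. The 1 dpi share was 5.59% with 6 more lineage markers at 0, 6.13% with no mitochondrial limit and 6.08% without cells over 1% neutrophil or mesenchymal markers, an alternative chosen after seeing the data.

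Counts of genes past 2-fold moved with the minimum of UMIs and with thinning. From 1 dpi against uninjured, 1859 were higher and 595 lower at 30 UMIs, 549 and 99 at 300, and 1756 and 1770 at 1 UMI in each library, 476 and 90 in thinned cells, and 160, 166 and 165 lower with the 6 markers, the thinned choice and the added alternative. For 3 against 1 dpi they were 970 and 636 at 30 UMIs, 90 and 234 at 300, 2639 and 754 at 1, and 45 and 176 in thinned cells. There 164 were higher within 2 SD of depth and without the top doublet ranks, 162 with the 6 markers, 207 with 4 UMIs of *Ly6c2*, 121 with the thinned choice, 215 with median-of-ratios size factors and 130 with the added alternative. For 7 against 3 dpi they were 178 and 795 at 30 UMIs, 12 and 37 at 300, 942 and 1993 at 1, 12 and 46 in thinned cells, 25 and 115 with 4 UMIs of *Ly6c2* and 17 and 69 with the thinned choice, with 27 higher after the depth and doublet limits and 94 with median-of-ratios. For 7 dpi against uninjured they were 201 and 173 at 30 UMIs, 16 and 10 at 300, 1542 and 937 at 1, 9 and 10 in thinned cells, 26 and 17 after the depth and doublet limits, 14 and 18 with the thinned choice, 30 and 19 with the added alternative, and 17 higher with 4 UMIs of *Ly6c2*. The per-cell mean of CPM, totals without mitochondrial and ribosomal genes and no mitochondrial limit left all these counts within 1.5 times. With the minimum met by the smaller library's level alone, also chosen after seeing the data, the higher and lower counts were 556 and 456, 787 and 241, 93 and 65, and 75 and 18 in the same order of comparisons, so which direction prevailed turned in the second part of the course (3 against 1 dpi and 7 against 3 dpi).

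Among lists, higher CC chemokines at 1 dpi numbered 5 and lower ones at 3 dpi 4 in thinned cells, and 4 were higher at 1 dpi with the minimum met by the uninjured level alone. Higher proliferation genes at 3 dpi numbered 3 after the depth and doublet limits, 3 with 4 UMIs of *Ly6c2*, 3 with the thinned choice, 3 at 300 UMIs, 6 with the 6 markers, 6 with the added alternative and 1 in thinned cells. At 1 UMI per library 8 negative regulators were lower at 7 dpi, and with the added alternative 1 mesenchymal marker was higher at 3 dpi. Of 1443 values for list ratios and named genes 786 stayed within the counting interval, 653 moved beyond it and 4 reversed. The reversed ratios were mesenchymal markers at 1 dpi over uninjured (1.48 with the added alternative), *Hist1h1b* at 3 over 1 dpi (0.593 with the thinned choice) and *Fabp4* at 7 over 3 dpi (0.292 after the depth and doublet limits, 0.584 with 4 UMIs of *Ly6c2*). The cause was not tested, apart from the few cells that hold the UMIs of the 2 genes.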

Other observations

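Further gene groups of the monocytes are given by their sums. Iron and haem handling genes summed to 14275, 18143, 10838 and 9620 CPM, with *Hmox1*, which breaks down haem, at 111, 221, 82.0 and 115 CPM. Adhesion genes summed to 1875, 2697, 2277 and 1844 CPM. Prostaglandin and leukotriene genes stayed at 1340, 1232, 1268 and 1194 CPM although *Ptgs2* was higher and *Hpgd* lower at 1 dpi. Genes of nonclassical monocytes summed to 1689, 1472, 1462 and 1184 CPM, with *Ace* at 144, 41, 23.7 and 37.8 CPM and *Treml4* at 22.5, 4.30, 6.47 and 17.9 CPM, both below the uninjured level after injury. After thinning, *Ace* was detected in 12.2, 4.13, 2.21 and 8.82% of the monocytes and 8.70, 5.20, 4.02 and 1.48% of the lymphocytes. Its monocyte shares at 1 and 3 dpi thus lay below those of lymphocytes. *Nr4a1*, the factor nonclassical monocytes need, stood at 1160, 1222, 1203 and 788 CPM. The genes from which the study proposed an M1 identity for macrophages summed to 159, 993, 284 and 199 CPM. The study read them on these same samples, so the values here are not independent of its reading. Its M2 genes, which include *Csf1r* of the choice, summed to 533, 640, 478 and 567 CPM.

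In each library the 18, 179, 36 and 26 monocytes with the most *Ly6c2* per UMI had more *Fcgr1* than as many with the least, at 140 against 54.4, 805 against 334, 431 against 96.8 and 290 against 61.5 CPM, and more *Ms4a4c*, at 533 against 183, 1483 against 610, 921 against 174 and 958 against 226 CPM. The order used a gene that chose the cells, so these values are a description. The cells with the least *Ly6c2* held more mesenchymal RNA, whose part was not tested.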
